A study of Mus musculus with 8 samples.

Results

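The mitochondrial ribosomal protein genes were examined in mouse hearts with and without a conditional gene deletion, at 4 and 10 weeks of age. A gene was counted here when its symbol in the array's annotation was Mrpl or Mrps followed by a digit, and 76 of the 18193 genes measured met that rule. By name, 47 belonged to the large subunit (Mrpl) and 29 to the small subunit (Mrps). The rule used names and no measured value. RefSeq lists 78 protein-coding genes of these names, and Mrpl30 and Mrpl53 were on the array only with probe sets that name several genes, so they were not analysed here.

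Mitochondria carry ribosomes of their own, made of a large and a small subunit, which translate the few messenger RNAs encoded in mitochondrial DNA. All of their products are core subunits of the respiratory chain and of ATP synthase, so a heart muscle cell cannot build its oxidative machinery without them. The protein parts of these ribosomes are encoded in the nucleus, made in the cytosol and imported. Some have relatives in bacterial ribosomes, and others exist only in mitochondria. The names do not always follow the structure. The proteins of Mrps30 and Mrps18a sit in the large subunit, and that of Mrps36 is a part of the 2-oxoglutarate dehydrogenase complex, so by structure 49 of the genes belonged to the large subunit and 26 to the small one.

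Total RNA from 8 female hearts was measured on Affymetrix whole-genome mouse expression arrays, with 1 heart per array. There were 4 groups of 2 mice, namely KO at 4 weeks, WT at 4 weeks, KO at 10 weeks and WT at 10 weeks. Since the 4 mice of each age came from 1 litter, age, litter and any difference in handling between the litters cannot be told apart. In the KO mice a gene is deleted conditionally with the MCK driver (muscle creatine kinase), which is active in heart and skeletal muscle cells, so the other cells of the heart keep the gene. A lower level in whole heart RNA can come from fewer cells of a type or from less RNA per cell, and these cannot be told apart. Values are log2 probe set intensities, with 1 probe set per gene. A gene was called lower or higher when the Benjamini-Hochberg adjusted p of limma over all 18193 genes was under 0.05. The labels give separate mice, and with 2 arrays per group their number limits the precision.

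The summed intensity of 10 cardiomyocyte markers was between 107023 and 132282 on the 8 arrays, so heart muscle was present in each. WT replicate 1 of 10 weeks stood apart from the other arrays. On the second principal component of all genes, which held 24.3% of the variance, it lay at -43.35, and the other 7 arrays lay between -4.18 and 13.92. The summed intensity of 5 liver markers was 4767 on that array and between 225 and 4529 on the others. Results at 10 weeks are therefore also given without WT replicate 1.

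Promoter stretches of 6 of the genes are shown first, because the promoters of genes for mitochondrial proteins are known for a few short motifs and because most of these genes moved together at 10 weeks. RefSeq windows (GRCm38.p6) of 250 bases before to 50 bases after the start were found for 67 of the 76 genes. The ETS motif CCGGAAG, searched on both strands, was in a window of 25 of these 67 genes (37.3%), against 9.93% of all 27025 genes with a window. The YY1 motif AAGATGGC was in 12 (17.9%, against 3.19%), the NRF1 motif (GCGCA followed directly by TGCGC) in 3 (4.48%, against 1.07%) and the SP motif GGGCGG in 34 (50.7%, against 38.2%). At least 1 of the ETS, YY1 and NRF1 motifs was in a window of 36 of the 67 genes (53.7%, against 13.4%). The 6 stretches printed are examples and do not show how frequent the motifs are. The 27025 genes were not limited to those measured on the array or expressed in heart. Each motif was searched on both strands on its own, so matches of different motifs may overlap. The 100 bases before the start are printed 5′ to 3′ on the strand of the gene, with the motif in capitals.
Mrpl36, chr13:73330909-73331008, plus strand, YY1 motif read on the other strand: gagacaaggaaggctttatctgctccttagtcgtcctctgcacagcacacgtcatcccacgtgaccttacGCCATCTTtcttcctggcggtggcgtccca
Mrpl34, chr8:71464826-71464925, plus strand, ETS motif: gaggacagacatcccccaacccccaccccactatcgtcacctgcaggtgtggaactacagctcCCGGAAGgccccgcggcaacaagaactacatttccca
Mrpl3, chr9:105053168-105053267, plus strand, ETS motif: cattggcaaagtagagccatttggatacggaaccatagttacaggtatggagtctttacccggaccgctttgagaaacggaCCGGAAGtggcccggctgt
Mrps22, chr9:98601680-98601779, minus strand, ETS motif: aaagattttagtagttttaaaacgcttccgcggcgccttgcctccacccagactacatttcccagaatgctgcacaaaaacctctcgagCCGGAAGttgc
Mrps18a, chr17:46110904-46111003, plus strand, ETS motif: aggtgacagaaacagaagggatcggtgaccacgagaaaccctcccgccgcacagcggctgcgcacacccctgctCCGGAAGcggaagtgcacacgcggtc
Mrps18b, chr17:35916441-35916540, minus strand, no ETS, YY1 or NRF1 motif in this stretch: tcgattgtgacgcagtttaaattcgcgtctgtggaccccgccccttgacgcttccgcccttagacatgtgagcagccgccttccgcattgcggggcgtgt

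The first 3 of these genes were called lower in the KO hearts at 10 weeks, Mrps22 and Mrps18a were not called, and Mrps18b was called higher. In Mrps18a a YY1 motif lies at base 11 after the start, and in Mrps18b an ETS motif at base 43, both outside the stretches shown. The ETS motif was found for 37.8% of the genes called lower at 10 weeks and for 36.7% of the other members. The median KO minus WT difference at 10 weeks was -0.68 for the 25 genes with the ETS motif and -0.63 for the 42 without it. The share with the motif was thus about the same in the members called lower and in the others.

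At 10 weeks the messenger RNAs of the mitochondrial ribosome were lower in the KO hearts across both subunits. Of the 76 genes, 43 were called lower and 1 was called higher, against 6.89% and 5.19% of all genes. All 76 lay above the median level of all genes, and dim genes lower the share over all genes. With the genes below that median left out of the fit, 46 members were called lower, against 13.3% of the 9097 genes kept. The median difference was -0.63, with quartiles of -0.93 and -0.40, against 0.00 over all genes. The difference was below 0 for 69 of the 76, against 49.2% of all genes. Both KO arrays lay below both WT arrays for 60 of the 76, against 23.5% of all genes, and above both for 3, against 23.7%. For 60 genes the 10-week KO arrays were the lowest of all 8 arrays, against 14% of all genes. In 17 of the genes called lower the level was at most 1/2 of that in the WT hearts, against 2.47% of all genes, 9 of them of the large subunit and 8 of the small one.

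**Figure D1:**
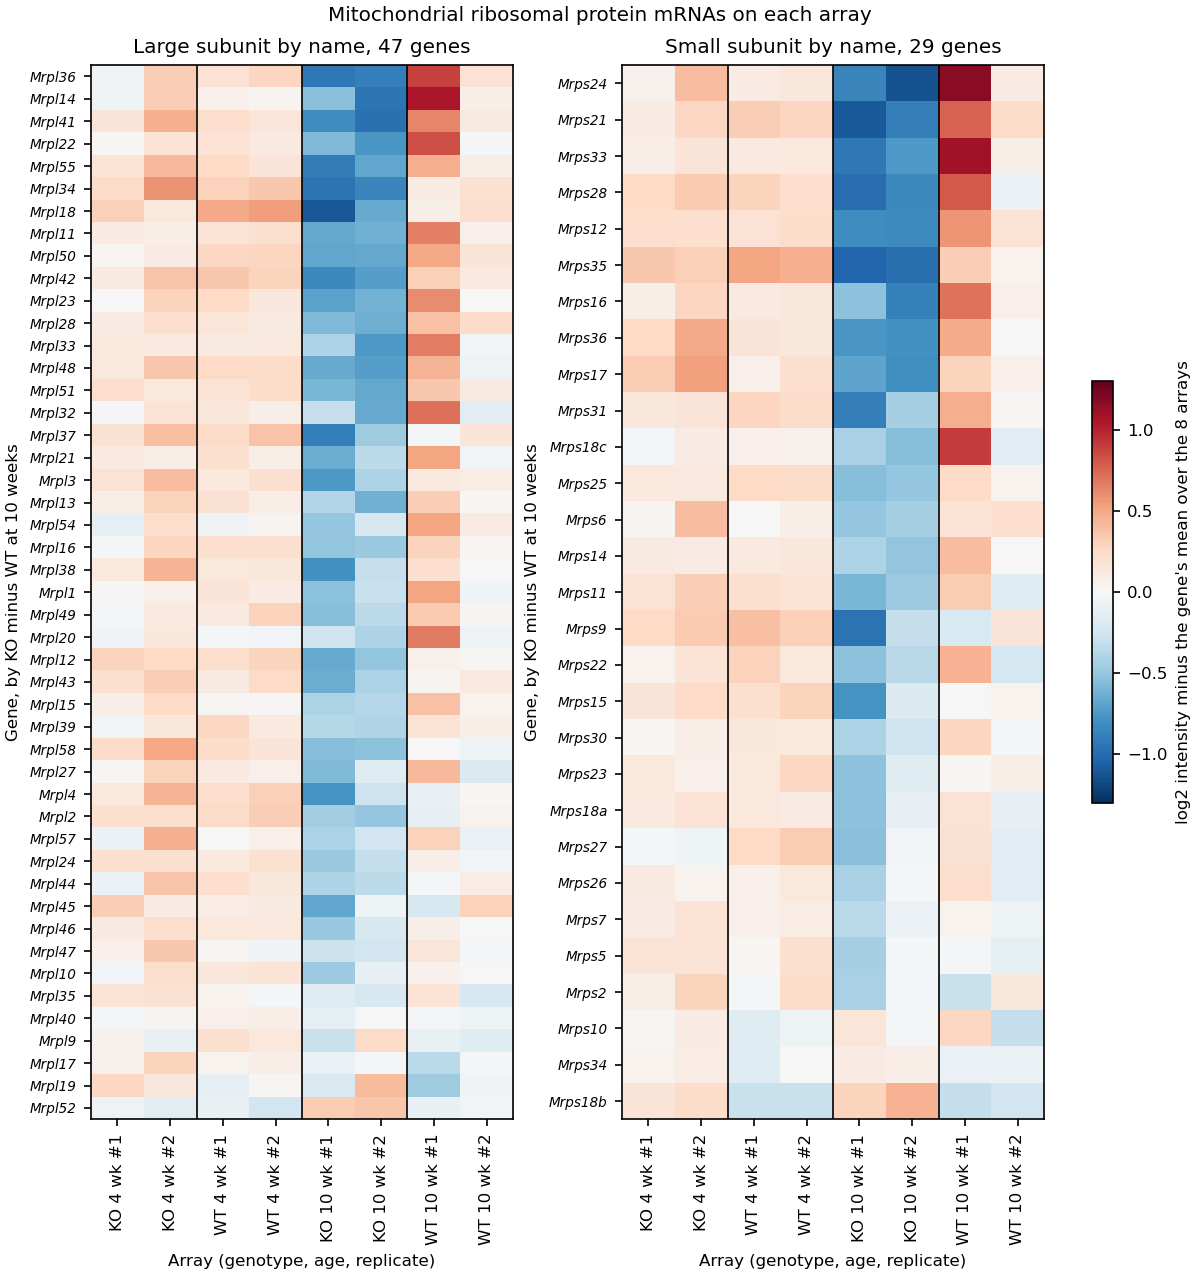
Log2 intensity of each of the 76 genes on each of the 8 arrays, minus the mean of the gene over the arrays, as colour (blue, below the mean; red, above it), with large subunit names on the left and small subunit names on the right, ordered by the KO minus WT difference at 10 weeks. The blue columns are the 2 KO hearts of 10 weeks, and WT replicate 1 of 10 weeks was the highest of the 8 arrays for 37 genes, against 25.4% of all genes.

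The 2 falls of greatest size were those of Mrps24 and Mrps21 in the small subunit. Mrps24, a relative of the bacterial protein uS3 at the messenger RNA entry channel, had log2 intensities of 9.24 and 8.96 in the KO hearts, against 11.27 and 10.21 in the WT hearts. Its level in the KO hearts was 32.1% of that in the WT hearts, a difference of -1.64 ± 0.29 (SE, adjusted p = 0.0061). The groups did not overlap, as the rule for naming these genes required, and the 2 WT hearts lay further apart than the 2 KO hearts. Mrps21, a relative of bacterial bS21, had 8.63 and 8.84 in the KO hearts, against 10.49 and 9.96 in the WT hearts, a difference of -1.49 ± 0.18 (SE, adjusted p = 0.00091). Mrps33, which has no bacterial relative, had 8.27 and 8.46 in the KO hearts, against 10.29 and 9.28 in the WT hearts, and its difference was -1.42 ± 0.26 (SE, adjusted p = 0.0079). In these genes, as in Mrps24, WT replicate 1 was the higher of the WT hearts.

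Among the other small subunit genes, Mrps12 and Mrps35 had the WT hearts closer together. Mrps12, a relative of bacterial uS12 in the decoding centre, where codon and anticodon are matched, had 8.12 and 8.10 in the KO hearts, against 9.50 and 9.11 in the WT hearts. The difference was -1.20 ± 0.14 (SE, adjusted p = 0.00098), and the 2 KO hearts lay closer together than the 2 WT hearts. Mrps35, a protein found only in mitochondria, had 8.13 and 8.18 in the KO hearts, against 9.48 and 9.21 in the WT hearts. It had the smallest adjusted p of the family at this age (0.00061), with a difference of -1.18 ± 0.13 (SE). Mrps28, a relative of bacterial bS1, had 9.04 and 9.20 in the KO hearts, against 10.84 and 9.96 in the WT hearts (-1.28, adjusted p = 0.0075). Mrps16, a relative of bacterial bS16 that is mutated in a human mitochondrial disease, had 9.69 and 9.35 in the KO hearts, against 10.94 and 10.29 in the WT hearts (-1.10, adjusted p = 0.0086). In each of these the highest KO array lay below the lowest WT array, as the rule for naming these genes required.

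In the large subunit the falls with the greatest size were those of Mrpl36, Mrpl14 and Mrpl41. Mrpl36, whose promoter with a YY1 motif is shown above, is a small protein related to bacterial bL36. It had 7.44 and 7.48 in the KO hearts, against 9.26 and 8.56 in the WT hearts, so the level in the KO hearts was 36.7% of that in the WT hearts (-1.45 ± 0.22, SE, adjusted p = 0.0027). Mrpl14, a relative of bacterial uL14 at the interface between the subunits, had 8.53 and 8.12 in the KO hearts, against 10.13 and 9.16 in the WT hearts (-1.32 ± 0.28, SE, adjusted p = 0.016). Mrpl41, a protein found only in mitochondria, had 9.39 and 9.23 in the KO hearts, against 10.84 and 10.32 in the WT hearts (-1.27 ± 0.18, SE, adjusted p = 0.0022). The groups did not overlap in any of the 3 genes, which the rule for naming them required.

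Mrpl34, a relative of bacterial bL34, had close values within both groups, with 8.60 and 8.69 in the KO hearts, against 9.66 and 9.75 in the WT hearts (-1.06 ± 0.14, SE, adjusted p = 0.0015). Mrpl18, a relative of bacterial uL18 that binds 5S rRNA in bacteria, had 7.82 and 8.28 in the KO hearts, against 9.02 and 9.15 in the WT hearts (-1.04, adjusted p = 0.0034). Mrpl12, the protein of the stalk that recruits translation factors, had 9.23 and 9.37 in the KO hearts, against 9.95 and 9.90 in the WT hearts. Its fall of 0.63 was about the median of the family and was called (adjusted p = 0.0078). Mrpl3, which lies near the catalytic centre and is mutated in a human cardiomyopathy, had 8.29 and 8.63 in the KO hearts, against 9.15 and 9.12 in the WT hearts (-0.68, adjusted p = 0.015).

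**Figure D2:**
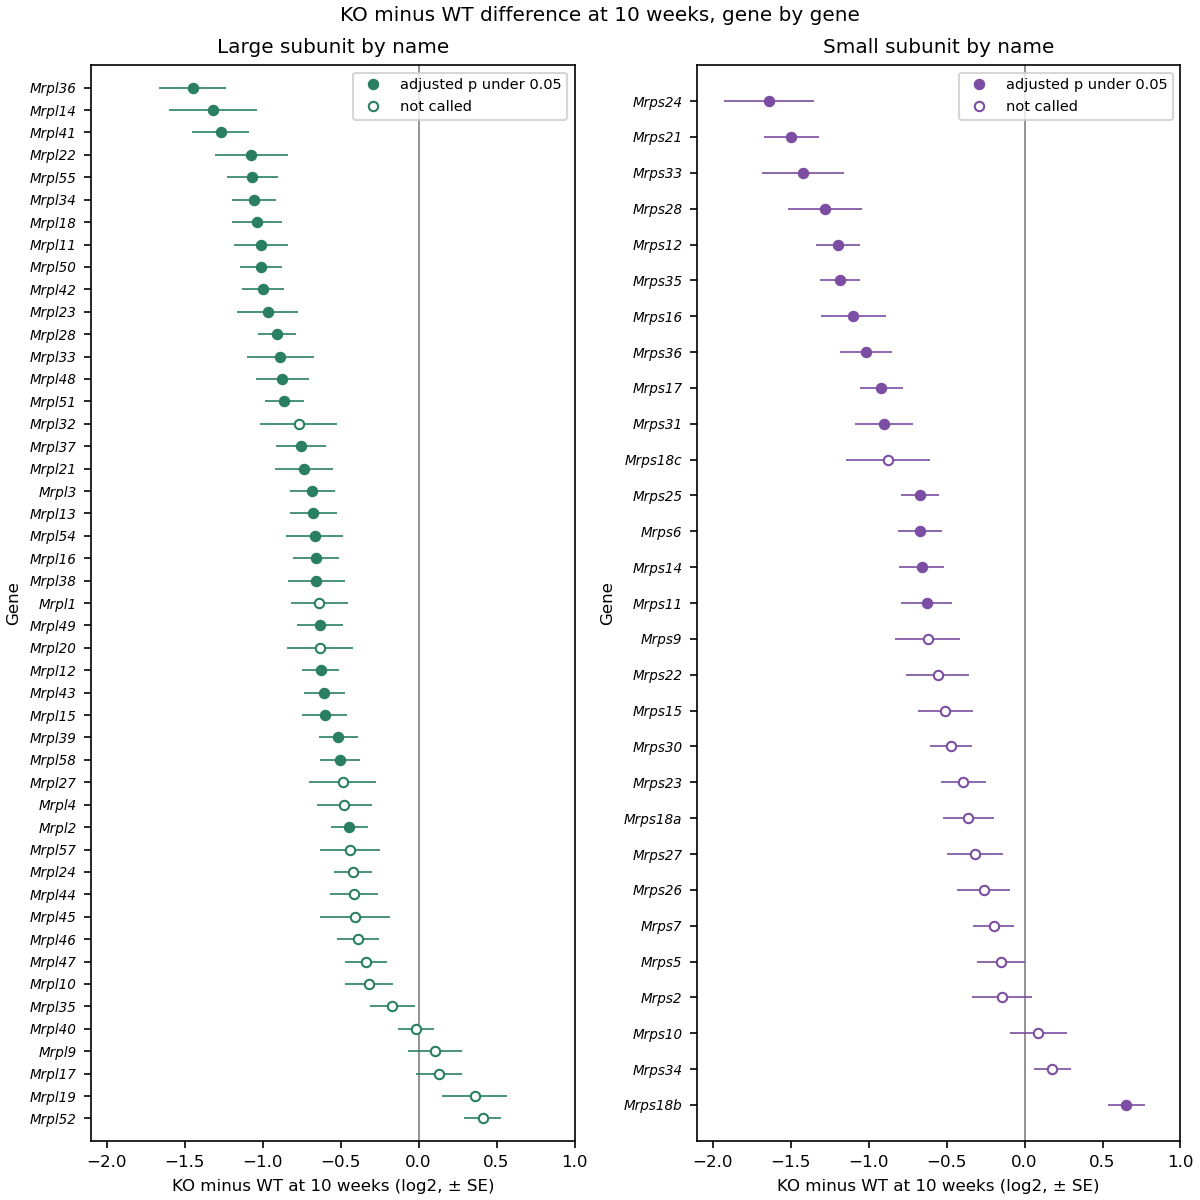
KO minus WT difference in log2 intensity at 10 weeks for each gene (points, with bars of 1 standard error of the limma fit), large subunit names on the left and small subunit names on the right, with filled points for an adjusted p under 0.05. The differences span -1.64 for Mrps24 to 0.65 for Mrps18b, and all filled points but that of Mrps18b lie left of 0.

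Both subunits were lower, with medians close to each other. In the large subunit 29 of 47 genes were called lower and none higher, with a median difference of -0.64. In the small subunit 14 of 29 were called lower and 1 higher, with a median of -0.63. Grouped by structure, 29 of 49 large subunit genes were called lower, with a median of -0.63, and 13 of 26 small subunit genes, with a median of -0.64. Array by array, the median deviation of the large subunit minus that of the small one was -0.01 and 0.03 in the KO hearts of 10 weeks, against 0.01 and 0.02 in the WT hearts of 10 weeks. The same index was -0.02 and 0.05 in the KO hearts of 4 weeks, against 0.04 and -0.01 in the WT hearts of 4 weeks. The groups overlapped at both ages, and no gap between the subunits was detectable with 2 arrays per group.

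Genes with bacterial relatives and genes found only in mitochondria were also both lower at 10 weeks. Of the large subunit genes, 17 of 29 with bacterial relatives were called lower (median -0.66), and 12 of 20 found only in mitochondria (median -0.56). Of the small subunit genes, 9 of 16 with bacterial relatives were called lower (median -0.67), and 4 of 10 found only in mitochondria, with 1 called higher (median -0.47). Mrps36, the dehydrogenase protein named with the family, had 9.44 and 9.41 in the KO hearts, against 10.67 and 10.20 in the WT hearts. It was called lower (-1.01, adjusted p = 0.0042) like the ribosomal genes.

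**Figure D3:**
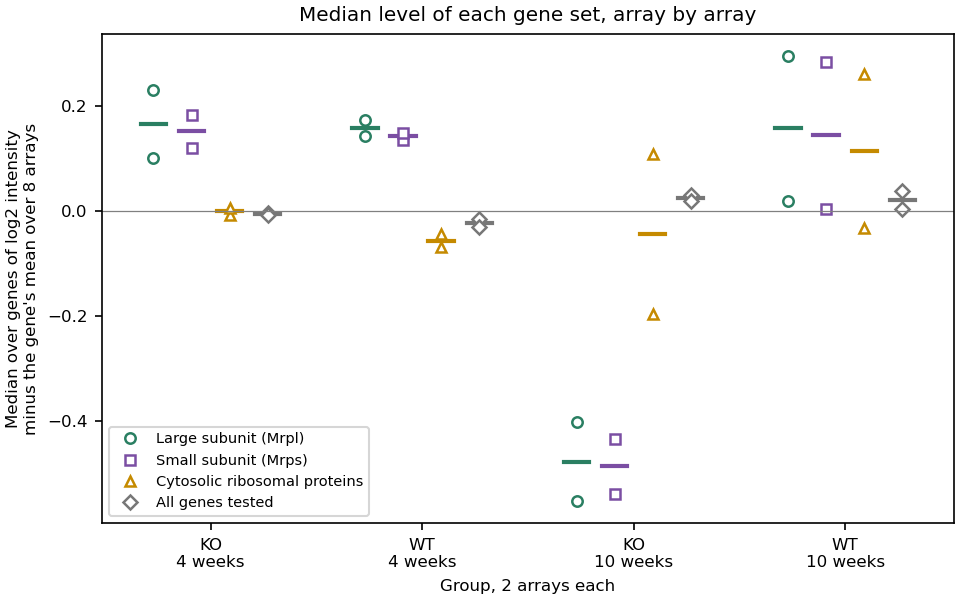
Median over genes of the log2 intensity minus the mean of each gene over the 8 arrays, for large and small subunit names, 42 cytosolic ribosomal protein genes and all 18193 genes, with 1 point per array and a bar at the mean of the 2 arrays of a group. In the KO hearts of 10 weeks both subunits lie between -0.55 and -0.40, below every other array, and all genes lie between -0.03 and 0.04 throughout.

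The 3 genes named Mrps18 went different ways. All are homologs of the bacterial protein bS18, and their products occupy different places, Mrps18a in the large subunit and Mrps18b and Mrps18c in the small one. Mrps18c takes the place of bS18 and was counted above with the bacterial relatives, while Mrps18a and Mrps18b sit at places of their own and were counted with the genes found only in mitochondria. Mrps18b had 8.42 and 8.58 in the KO hearts, against 7.82 and 7.88 in the WT hearts, and was the 1 gene of the family called higher (0.65 ± 0.12, SE, adjusted p = 0.0071). Mrps18c had 9.22 and 9.10 in the KO hearts, against 10.55 and 9.51 in the WT hearts. Its KO arrays lay below both WT arrays, but the WT hearts differed by over 1 log2 unit and the difference of -0.87 was not called (adjusted p = 0.068). Mrps18a had 8.70 and 9.13 in the KO hearts, against 9.42 and 9.13 in the WT hearts, with overlap (-0.36, adjusted p = 0.23).

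**Figure D4:**
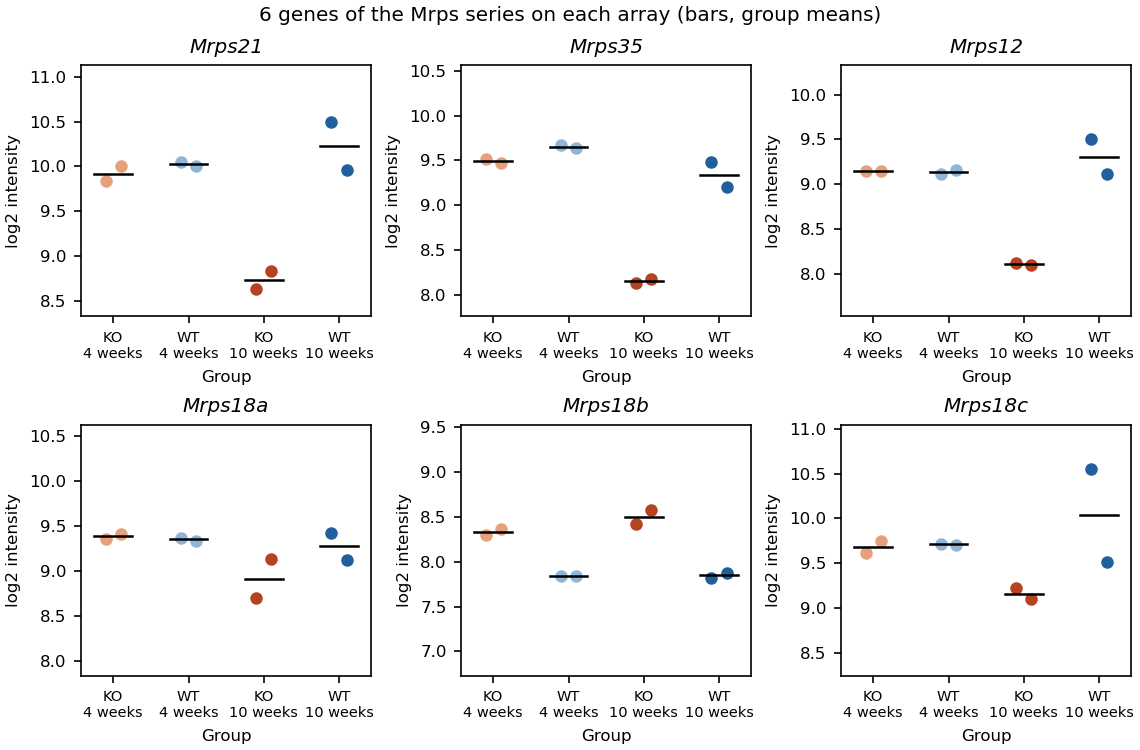
Log2 intensity of 6 genes on each array, with a point per heart and a bar at the mean of each group; every panel spans the same height on the log2 axis. In the upper row both KO hearts of 10 weeks lie below the other 6 hearts, and in the panel of Mrps18b the KO hearts lie above the WT hearts at both ages.

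Of the 32 genes not called at 10 weeks, most also had negative differences. Several of them have human counterparts known from mitochondrial disease. Mrpl44, mutated in a human cardiomyopathy, had 9.01 and 9.08 in the KO hearts, against 9.40 and 9.51 in the WT hearts (-0.41, adjusted p = 0.13). Mrps22, also mutated in human disease with cardiomyopathy, had 8.12 and 8.30 in the KO hearts, against 9.10 and 8.43 in the WT hearts (-0.56, adjusted p = 0.12). In both genes the groups did not overlap, although neither passed the test.

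Other genes of known role stayed near the WT level at 10 weeks or had wide groups. Mrps7, a relative of bacterial uS7 in the head of the small subunit, had 8.36 and 8.64 in the KO hearts, against 8.75 and 8.64 in the WT hearts (-0.20, adjusted p = 0.43). Mrps2, a relative of bacterial uS2, had 7.79 and 8.20 in the KO hearts, against 7.92 and 8.36 in the WT hearts (-0.15, adjusted p = 0.74). Mrpl27, a relative of bacterial bL27 near the catalytic centre, had 9.52 and 9.94 in the KO hearts, against 10.52 and 9.91 in the WT hearts (-0.49, adjusted p = 0.21). Groups of 2 hearts overlapped in Mrps2 and Mrpl27, and nearly met in Mrps7.

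Mrps30, a large subunit protein despite its name, had 7.62 and 7.77 in the KO hearts, against 8.32 and 8.02 in the WT hearts, and narrowly missed the threshold (-0.47, adjusted p = 0.052). Mrps34, which is found only in mitochondria and is mutated in a human mitochondrial disease, had 9.77 and 9.76 in the KO hearts, against 9.59 in both WT hearts (0.18, adjusted p = 0.43). Its KO arrays lay above its WT arrays by less than 0.2. Besides Mrps18b and Mrps34, the third gene with no overlap and the KO hearts on top was Mrpl52, which was chosen after its values were seen. It had 11.05 and 11.09 in the KO hearts, against 10.63 and 10.69 in the WT hearts (0.41, adjusted p = 0.054). Its 2 next brightest probe sets gave differences of -0.70 and -0.63, neither of them called, so the direction for Mrpl52 depends on the probe set.

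The 10-week WT hearts differed from each other in this family. WT replicate 1 was above WT replicate 2 for 59 of the 76 genes, against 54.2% of all genes, with a median gap of 0.28. The gap was over 0.5 in 21 genes and reached 1.06. The mean of the KO hearts lay below WT replicate 2 alone in 68 of the 76 genes, against 46% of all genes, and below WT replicate 1 alone in 69, against 52.2%. Without WT replicate 1 the median difference was -0.52 and 31 genes were called lower, against 7.04% of all genes in that fit, 19 of the large subunit and 12 of the small one. Without it the difference of Mrps24 was -1.10, that of Mrps33 -0.91 and that of Mrpl14 -0.83, with adjusted p of 0.0045, 0.0039 and 0.030. That fit has 1 WT heart of 10 weeks, which is assumed to vary like the other groups, and it leaves the gap between the 2 WT hearts out of the error, so these p are no independent support.

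The number of calls depended on which arrays entered the fit, and the difference was below 0 for 66 to 70 genes whichever single array was left out. Leaving out KO replicate 1 of 10 weeks gave 20 genes called lower and a median of -0.53, against 3.27% of all genes called lower in that fit. Leaving out KO replicate 2 gave 27 and a median of -0.71, against 4.39% of all genes. With the 4 arrays of 10 weeks alone in the fit, 17 genes were called lower, against 3.07% of all genes, and Mrps18b was no longer called. The call of lower was kept without each single array in turn for 16 of the 43 genes, 10 of the large subunit and 6 of the small one, among them Mrps21, Mrps12, Mrps35, Mrpl36, Mrpl41 and Mrpl34. Those of Mrps24, Mrps33, Mrpl14, Mrps28 and Mrps16 were each lost without 1 of the KO hearts, at adjusted p of 0.053, 0.065, 0.11, 0.062 and 0.071, and that of Mrps18b without KO replicate 2, at 0.054.

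At 4 weeks no gene of the family was called in limma, against 0.0275% of all genes called higher and 0% called lower. At an unadjusted p under 0.05 there was 1 gene, Mrps18b, against 1.79% of all genes higher and 1.95% lower. The median difference between KO and WT was 0.02, against 0.01 over all genes, and the range was -0.33 for Mrps27 to 0.49 for Mrps18b. The difference was below 0 for 35 of the 76 genes, against 46.6% of all genes. The median was 0.023 in the large subunit and 0.0088 in the small one. Both KO arrays lay below both WT arrays for 16 genes and above them for 12, against 17.5% and 19.4% of all genes.

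Mrps18b at 4 weeks had 8.30 and 8.37 in the KO hearts, against 7.84 in both WT hearts. The difference of 0.49 had an unadjusted p of 0.0024 and was not called over all genes (adjusted p = 0.73). The KO hearts were thus above the WT hearts by similar amounts at both ages. Mrps17, a relative of bacterial uS17, had 9.70 and 9.90 in the KO hearts of 4 weeks, against 9.44 and 9.58 in the WT hearts (0.29, unadjusted p = 0.062). In both of these genes the KO hearts lay above the WT hearts. Mrpl18 had 9.24 and 9.07 in the KO hearts of 4 weeks, against 9.43 and 9.48 in the WT hearts (-0.30, unadjusted p = 0.096). Mrps27, an RNA-binding protein of the small subunit, had 7.56 and 7.52 in the KO hearts of 4 weeks, against 7.83 and 7.91 in the WT hearts (-0.33, unadjusted p = 0.11). In these 4 genes the groups did not overlap, but none of them passed the test over all genes.

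The change of the KO effect between the ages was tested as the difference of the 2 KO minus WT differences. For 10 genes it was called negative and for none positive, against 1.2% and 0.879% of all genes, and its median over the family was -0.68, against -0.02 over all genes. At an unadjusted p under 0.05 it was negative for 44 genes and positive for none, against 7.4% and 6.53% of all genes, and it was below 0 for 68, against 52.7%. The 4 smallest p belonged to Mrps17, Mrps12, Mrpl34 and Mrps35. Mrps17 had a KO minus WT difference of 0.29 at 4 weeks and of -0.92 at 10 weeks. At 10 weeks it had 8.69 and 8.57 in the KO hearts, against 9.66 and 9.44 in the WT hearts. The change in its effect was -1.21 ± 0.19 (SE, adjusted p = 0.021). That of Mrps12 was -1.20 (adjusted p = 0.023), that of Mrpl34 -1.15 (adjusted p = 0.025) and that of Mrps35 -1.02 (adjusted p = 0.028). These calls were fragile: their number depended on which single array was left out of the fit. The change for Mrps18b was 0.16 (adjusted p = 0.78).

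**Figure D5:**
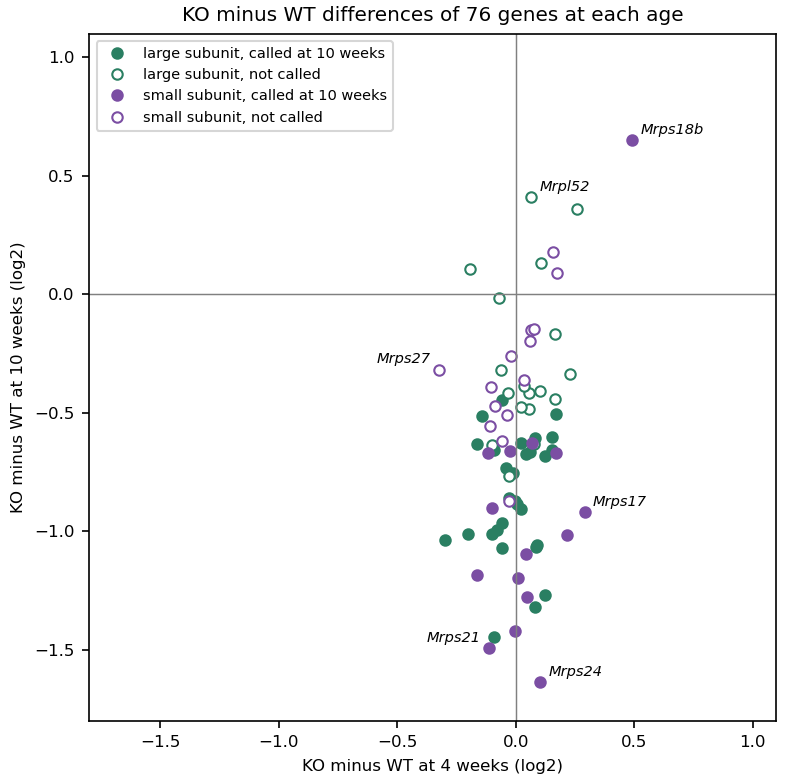
KO minus WT difference in log2 intensity at 4 weeks (horizontal axis) and at 10 weeks (vertical axis) for the 76 genes, with 1 point per gene, coloured by subunit name and filled where the gene was called at 10 weeks. The points spread from -0.33 to 0.49 at 4 weeks and from -1.64 to 0.65 at 10 weeks, and Mrps18b is the 1 filled point above 0.

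From 4 to 10 weeks the levels changed in the KO hearts and not detectably in the WT hearts, in groups that differ in litter as well as in age. In the KO hearts 41 genes were called lower at 10 weeks than at 4 weeks and 1 higher, against 7.07% and 3.42% of all genes, with a median of -0.67. Mrps35 fell by 1.33 (adjusted p = 0.00047), with 8.13 and 8.18 at 10 weeks, against 9.51 and 9.47 at 4 weeks. Mrpl34 fell by 1.32 (adjusted p = 0.00072) and Mrps17 by 1.17 (adjusted p = 0.0012). The gene called higher was Mrpl52 (0.45, adjusted p = 0.042), with 11.05 and 11.09 at 10 weeks, against 10.66 and 10.58 at 4 weeks. That call was lost with averaged probe sets, with centred array medians, with trend and robust eBayes, and with only the compared groups. The KO hearts of 10 weeks enter both this comparison and that with WT, so the 36 genes called lower in both are not 2 independent results.

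In the WT hearts no gene was called in limma between the ages, against 0.066% of all genes lower and 0.0495% higher, and the median was -0.02. At an unadjusted p under 0.05 there were 3 genes, all lower at 10 weeks, against 9.75% of all genes lower and 8.31% higher. They were Mrpl2 (-0.31, unadjusted p = 0.025), Mrps35 (-0.31, unadjusted p = 0.037) and Mrpl18 (-0.37, unadjusted p = 0.047). Mrpl2, a relative of bacterial uL2, had 9.19 and 9.34 in the WT hearts of 10 weeks, against 9.54 and 9.61 in those of 4 weeks. That no gene was called with age in the WT hearts depended on keeping WT replicate 2 of 10 weeks in the fit. The genes called without it were all higher at 10 weeks than at 4 weeks.

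More than 1 probe set was available for 42 of the genes. Of the 25 called at 10 weeks that had a further probe set, 11 had at least 1 of opposite sign, and for 10 none of the others reached 60% of the difference found with the one used. Many further probe sets were dim: 23 of the 45 of called genes had a mean log2 intensity under 6. Of the 45, 33 gave a difference below 0 and 17 were called lower when tested singly. The bright second probe set of Mrpl41 gave -1.32. That of Mrps24 gave -1.62, but both probe sets of Mrps24 are of the shared-sequence type (suffix _s_at). The only probe sets of Mrps12 and Mrpl37 are of this type too. The fit that used no such probe sets had 73 members. Mrps24, Mrps12 and Mrpl37 were not among them, so their falls could not be checked in that way. Mrpl28, a relative of bacterial bL28, had further probe sets at 0.01 and -1.01 beside the -0.91 of the one used. A dim probe set of Mrpl42 gave 0.48 (adjusted p = 0.041), although the one used was called lower.

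Some proteins of the same ribosome have other names. Of 4 measured, 2 were called lower at 10 weeks, with a median of -0.68, against 6.89% of all genes called lower and a median of 0.00. In a list this short the share rests on few genes. Chchd1, a small subunit protein, had 9.68 and 9.22 in the KO hearts, against 11.29 and 10.18 in the WT hearts (-1.29, adjusted p = 0.023). Dap3, a GTP-binding protein of the small subunit, had 8.79 and 9.11 in the KO hearts, against 9.54 and 9.58 in the WT hearts (-0.60, adjusted p = 0.018). The groups did not overlap in either gene.

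Some of the genes that build or serve the mitochondrial ribosome were lower too. Of 25 genes for assembly and rRNA modification 6 were called lower and none higher, with a median of -0.28, against 6.89% and 5.19% of all genes. Tfb1m, which methylates the rRNA of the small subunit, had 5.71 and 5.62 in the KO hearts, against 7.09 and 6.81 in the WT hearts (-1.28, adjusted p = 0.0014). Mtg2, a GTPase of large subunit assembly, had 7.25 and 7.67 in the KO hearts, against 8.52 and 8.21 in the WT hearts (-0.90, adjusted p = 0.0084).

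Of 12 translation factors and insertion genes 2 were called lower and none higher, with a median of -0.34, against the same shares of all genes. They were Pdf, which removes the formyl group from new mitochondrial proteins, at 7.14 and 7.26 in the KO hearts, against 8.35 and 8.26 in the WT hearts (-1.10, adjusted p = 0.00061), and Mrrf, the ribosome recycling factor (-0.87, adjusted p = 0.0031). Of 8 genes for mitochondrial transcription and messenger RNA 2 were called lower, with a median of -0.32, again against 6.89% of all genes. They were Slirp, which stabilises mitochondrial messenger RNAs (-1.42, adjusted p = 0.0067), and Tefm, the mitochondrial transcription elongation factor (-0.84, adjusted p = 0.015). These lists, and that for assembly, had median levels above that of all genes on every array. With genes below the median level left out, 13.3% of the 9097 genes kept were called lower. The calls of these lists were not counted in that fit, and lists this short rest on few genes.

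The ribosome of the cytosol, which is built from a separate set of proteins, had calls in both directions. Of 42 of its protein genes 1 was called lower and 1 higher at 10 weeks (2.38% each way), against 6.89% and 5.19% of all genes, with a median of -0.15. Only probe sets that name 1 gene were used, and some of those left were dim. Rps16, for example, had a mean of 3.32 in the KO hearts of 10 weeks and Rpl14 one of 4.84. This limits what the counts can show. Rplp2, a stalk protein, had 11.24 in both KO hearts, against 11.95 and 11.81 in the WT hearts (-0.64, adjusted p = 0.0071). Rpl4 had 12.94 and 13.10 in the KO hearts, against 12.22 and 12.55 in the WT hearts (0.63, adjusted p = 0.021). The difference between the cytosolic and the mitochondrial set was described by these counts and medians and not tested.

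Markers of some other cell types differed between the KO and WT hearts at 10 weeks. The summed intensity of 7 fibroblast markers was 14770 and 14399 in the KO hearts, against 5904 and 7792 in the WT hearts, and 6 of the 7 were called higher. In the hearts of 4 weeks it was 11389 and 12889 in KO and 10346 and 12087 in WT. The median change of these markers from 4 to 10 weeks was -0.06 in the KO hearts and -0.60 in the WT hearts. The sum of 7 macrophage markers was 6233 and 5225 in the KO hearts, against 3780 and 3647 in the WT hearts, with 3 called higher. That of the 10 cardiomyocyte markers was 107023 and 117496 in the KO hearts, against 112026 and 128654 in the WT hearts, with 1 called higher and 3 lower. The sum of 5 atrial markers was 23822 and 23529 in the KO hearts, against 16084 and 24338 in the WT hearts. Sln was called lower (-2.35) and Nppa higher (1.04). The atrial sum at 4 weeks was 13275 and 28263 in KO and 6368 and 9362 in WT, so it varied widely between hearts. Of 5 endothelial markers 1 was called higher, with a median difference of -0.10. Of all genes 5.19% were called higher and 6.89% lower. The part of these cell types in the lower levels of the ribosomal genes was not tested. The sum of 5 liver markers was 225 and 344 in the KO hearts, against 4767 and 510 in the WT hearts, and that of 4 kidney markers 142 and 139, against 959 and 242. The 3′ minus 5′ difference of the control probe sets, a sign of RNA quality, differed between the KO and WT hearts of 10 weeks by 0.07 for Gapdh and 0.08 for Actb.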

How the data were processed

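Values for 8 arrays came from the deposited value table, in which the authors gave probe set intensity on a linear scale, for which the submitters' processing notes name GCOS 1.3 and RMA without an order or an RMA version. RMA equalises array distributions and so measures change relative to all genes. Array medians were 34.3 to 37.4 and the lowest value was 4.90, so log2 was taken here without a pseudocount or filter. Of 45101 probe sets, 64 controls were left out. Of the rest, 34945 name 1 gene, and each of 18193 genes was read from its brightest probe set (mean over the arrays). Symbols of all 76 members matched RefSeq through the Entrez ID.

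All 8 arrays entered 1 fit in limma 3.58.1 with a mean for each group (R 4.3.3, eBayes, 4 residual and 9.33 total degrees of freedom). Tests were two-sided. Differences had a median SE of 0.145 over all genes. The fit was tested on simulated data. There were 5 comparisons: KO against WT at 4 and at 10 weeks, the change of that effect with age, and 10 minus 4 weeks within KO and within WT. Promoter windows came from RefSeq, and 4 motifs were searched on both strands.

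Genes were named by a rule. It took the 10 greatest falls among members called lower with both KO arrays below both WT arrays. The lack of overlap in those 10 was therefore fixed in advance. Added to these were members called higher or at 4 weeks, and those with the smallest p in each other comparison. Members fixed by role and 2 of each other list were also named. The members and lists were chosen with earlier results of these data known. The result for 1 gene is not reported here. Aurkaip1, Mtrf1 and Taco1 of the lists were not measured.

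Alternatives were averaging all probe sets of a gene, no shared-sequence probe sets, no dim genes, 16 added before log2, quantile normalization again, centred medians, trend and robust eBayes, only the compared groups, a replicate block, each array left out, and, chosen after seeing the data, all probe sets tested singly.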

Additional observations from a re-analysis of the deposited data

Results flagged for a closer look

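For 10 genes the KO effect differed between the ages by the test of the difference itself. The change (KO minus WT at 10 weeks, minus that at 4 weeks) was -1.39 for Mrpl41, -1.38 for Mrps21, -1.23 for Mrps36, -1.21 for Mrps17, -1.20 for Mrps12, -1.15 for Mrpl55 and for Mrpl34, -1.02 for Mrps35, -0.93 for Mrpl28 and -0.92 for Mrpl42. The adjusted p in limma were between 0.0206 for Mrps17 and 0.0481 for Mrpl42. In all 10 the difference was below 0 at 10 weeks, between -1.49 for Mrps21 and -0.91 for Mrpl28. At 4 weeks it was between -0.16 for Mrps35 and 0.29 for Mrps17. The ages also differ in litter. None of these calls held in every fit that left out 1 array. With 2 arrays per group, no array could be tested as an outlier.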

How the results depend on the processing

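Read from the probe set used, or from the mean of its probe sets, no called KO minus WT difference of a gene named by the rule changed sign under any setting that kept the gene. Further probe sets of opposite sign exist for 11 called genes. The count of members called at 10 weeks was 44 and became 17 with only the 10-week groups in the fit; under the other settings that kept all arrays it was between 37 and 49. The count of changed KO effects was 10 and became 5 when all probe sets of a gene were averaged, 5 with 16 added before log2 and 17 with the replicate block. Leaving out 1 array at a time gave 21 to 51 members called at 10 weeks, 0 to 38 changed KO effects (0 without KO replicate 2 of 4 weeks, either WT heart of 4 weeks or either KO heart of 10 weeks, and 1 without KO replicate 1 of 4 weeks), 13 to 56 calls between the ages in KO hearts (13 without KO replicate 2 of 4 weeks, 16 without KO replicate 1 of 10 weeks and 26 without KO replicate 1 of 4 weeks) and 0 to 10 in WT hearts. In these fits the median difference of the members at 10 weeks was between -0.78 and -0.52, and that at 4 weeks between -0.06 and 0.08. With all arrays the 10-week median was -0.47 when probe sets were averaged, -0.55 after quantile normalization again and between -0.65 and -0.62 under the other settings. Leaving out 1 array, the large minus small subunit difference of medians was between -0.062 (without WT replicate 1) and 0.040 (without KO replicate 1) at 10 weeks and between -0.052 and 0.049 at 4 weeks, against -0.0092 and 0.015 with all arrays. Where leaving out an array leaves 1 in a group, that array is assumed to vary like the other groups. The causes were not tested. In the fits under other settings, the share of all genes called was counted for KO minus WT at 10 weeks only. At 4 weeks no setting gave a call.

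The replicate numbers were not used as pairs, since the labels tie no KO mouse to a WT mouse. Deviations of same-numbered arrays from their group means correlated at 0.302 at 4 weeks and 0.230 at 10 weeks. With the replicate number as a block, 49 members were called at 10 weeks, 47 lower, against 8.54% of all genes lower in that fit. Without the block that share was 6.89%, and all 43 members called lower there were among the 47. With 2 arrays per group a gene's difference has a median SE of 0.145, which limits what smaller differences can show.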
